A study of Homo sapiens with 8 samples.

Results

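The abundance of the family of miR-103a and miR-107 was determined in 4 cancer cell lines by small RNA-seq. The family was taken as the entries for hsa-miR-103a-3p, hsa-miR-107 and hsa-miR-103a-2-5p (the species prefix is left out from here on), 3 of 2588 mature miRNA names and 4 of 2813 entries, since miR-103a-3p has an entry for each of its genomic copies. The lines were ES-2, derived from ovarian cancer, MV-3, derived from melanoma, Huh-7, derived from hepatocellular carcinoma, and A-549, derived from lung adenocarcinoma. All were parental, untreated cells grown in DMEM with fetal bovine serum and harvested 48 h after seeding, with 2 libraries per line that the study describes as biological replicates. One line stood for each cancer type, so properties of a line and of its tumor type cannot be told apart. Because total RNA of whole cultures was sequenced, fewer cells with a miRNA and less of it per cell cannot be told apart either.

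miRNAs are short RNAs that guide Argonaute proteins to mRNAs, mainly by pairing of bases 2 to 8, the seed, and thereby lower mRNA stability and translation. miR-103a and miR-107 are processed from introns of the pantothenate kinase genes, whose products catalyse the first step of coenzyme A synthesis. The family is known for targeting the DICER1 mRNA and thereby miRNA processing itself, and for an influence on insulin sensitivity in liver and fat through caveolin-1.

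The sequences show how alike the members are. In the following mature miRNAs from RefSeq (GRCh38.p14), capitals mark the seed.
miR-103a-3p: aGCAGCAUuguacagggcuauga
miR-107: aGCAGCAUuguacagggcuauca
miR-103a-2-5p: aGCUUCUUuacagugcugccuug
miR-103a-1-5p: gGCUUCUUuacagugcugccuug
miR-103b: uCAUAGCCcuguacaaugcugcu
Of 2370 mature names in the reference, 2 carry the seed of miR-103a-3p, namely miR-103a-3p and miR-107. They differ by a single substitution, G22C, counted from the 5′ end of 23 bases (miR-103a-3p first). The first 21 bases are identical, so a read that stops there cannot be assigned to either. The 5p arms of the pair of miR-103a hairpins differ by G1A alone (miR-103a-1-5p first). miR-103b is the reverse complement of miR-103a-3p and was annotated at the same positions on the opposite strand.

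The 3 hairpins lie in introns, on the strand of their host genes (GENCODE release 44). MIR103A1 is located at chr5:168560896-168560973, minus strand, in PANK3. MIR103A2 is located at chr20:3917494-3917571, plus strand, in PANK2, and MIR107 at chr10:89592747-89592827, minus strand, in PANK1. In the canonical transcript of each host the hairpin lies in intron 5, which spans 2235 bases in PANK3, 1620 in PANK2 and 4419 in PANK1. No annotated exon of the 3 hosts overlaps a hairpin. The mature 3p region (capitals) and the 7 hairpin bases that follow it (lower case) are given here, since in these stretches the copies of miR-103a differ after the mature miRNA and not within it, while MIR107 differs from them in both.
MIR103A1: AGCAGCAUUGUACAGGGCUAUGAaggcauu
MIR103A2: AGCAGCAUUGUACAGGGCUAUGAaagaacc
MIR107: AGCAGCAUUGUACAGGGCUAUCAaagcaca
The host mRNAs were not measured in these small RNA libraries.

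Libraries held 1173902 to 2670030 reads on mature miRNAs. Levels are given as normalised CPM, the deposited counts per 1000000 reads after scaling by TMM (trimmed mean of M values), and as library CPM, the recovered reads per 1000000 miRNA reads without a TMM factor. The largest TMM factor was 2.87-fold the smallest, and miR-21-5p took 64.2% to 65.0% of reads in A-549 but 27.0% to 33.3% in the other lines. Therefore, both scales are reported. Among markers of the cells of origin, the liver miRNAs miR-122-5p and miR-885-5p together reached 84424 and 89378 normalised CPM in Huh-7. The 4 melanocyte and melanoma miRNAs were absent or near the detection floor in MV-3, where miR-204-5p had 2 reads per library and miR-211-5p, miR-514a-3p and miR-509-3p had 0. Their summed level was highest in Huh-7, with a line mean of 37.2 normalised CPM beside 1.29 in MV-3. Most of the Huh-7 sum was miR-204-5p, at 34.7. Summed epithelial miRNAs of the miR-200 family and miR-141 were 1605 to 2339 in Huh-7 and A-549 and 29.6 to 60.4 in ES-2 and MV-3. Most of the sum was miR-200b-3p, with means of 1853 in Huh-7 and 1354 in A-549. Line means of miR-200a-3p, miR-200c-3p and miR-429 had the same grouping. miR-141-3p did not, with means of 5.25 in ES-2, 1.08 in Huh-7, 0.409 in A-549 and 0 in MV-3. Of the blood cell markers, miR-142-3p was at 357 in ES-2 and had 0 reads in the other lines. The other markers of this list did not follow it. In the ES-2 libraries, miR-223-3p had 0 reads and miR-451a had 1 and 0. Summed muscle miRNAs had line means of 1.04 to 8.81. None of these lists separated MV-3 and Huh-7 from ES-2 and A-549 without overlap.

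miR-103a-3p was abundant in all 4 lines and higher in MV-3 and Huh-7 than in ES-2 and A-549. Replicates 1 and 2 of MV-3 had 13334 and 13914 normalised CPM, and those of Huh-7 had 12645 and 11922. ES-2 libraries were at 7301 and 7640, and A-549 libraries at 7045 and 7661. The libraries of MV-3 and Huh-7 all lay above those of ES-2 and A-549, whereas the ranges of ES-2 and A-549 overlapped. The rank among miRNAs of a library, which does not depend on the scaling, was 7 in both Huh-7 libraries, 12 in both MV-3 libraries, 20 and 21 in ES-2, and 23 and 21 in A-549. The miRNA held 2.05% ± 0.0244 of reads in Huh-7 (SD, n = 2), 1.59% ± 0.0722 in MV-3, 0.640% ± 0.0112 in ES-2 and 0.442% ± 0.0184 in A-549. These values rest on 9368 to 44910 reads of hsa-miR-103a-3p per library.

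**Figure D1:**
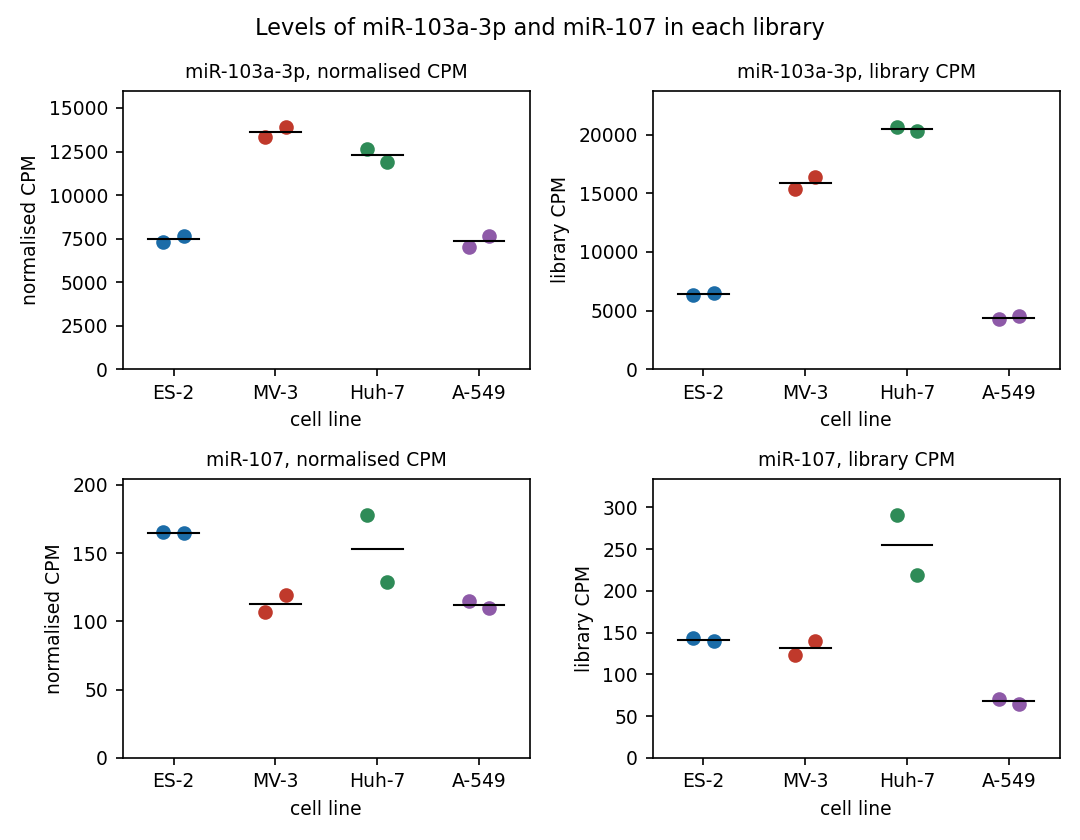
Points are the 2 libraries of each line and horizontal bars their means, for miR-103a-3p (top) and miR-107 (bottom), in normalised CPM (left) and library CPM (right), with axes from 0. MV-3 and Huh-7 libraries lie above ES-2 and A-549 for miR-103a-3p on both scales, while for miR-107 the Huh-7 libraries lie far apart, at 178 and 129 normalised CPM.

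The 4 lines differed in miR-103a-3p by limma's joint test (adjusted p = 4.31e-05). Of the 528 miRNAs tested, 68.2% were called by this test, so a call as such is common here. By pairs of lines, miR-103a-3p was 1.82-fold higher in MV-3 than in ES-2 (log2 difference 0.87, SE 0.06, limma's adjusted p = 0.00011), a pair in which 25.8% of miRNAs were called. It was 1.64-fold higher in Huh-7 than in ES-2 (log2 fold change 0.72, adjusted p = 0.000105), where 49.2% of miRNAs were called. A-549 was lower than MV-3 by 1.85-fold (log2 fold change -0.89, adjusted p = 6.85e-05), with 39.6% called, and lower than Huh-7 by 1.67-fold (-0.74, adjusted p = 9.42e-05), with 52.3% called. These folds are on the log2(normalised CPM + 1) scale.

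The remaining pairs were not called. Huh-7 minus MV-3 gave -0.15 on the log2 scale (adjusted p = 0.0909 by limma), in a pair with 47% of miRNAs called, whereas DESeq2 on recovered reads called it (-0.25, adjusted p = 0.00961). A-549 minus ES-2 gave -0.02 (adjusted p = 0.804), in a pair with 41.3% called. The order within these pairs depended on the scaling. By library CPM, Huh-7 (20489 ± 244) exceeded MV-3 (15855 ± 722) by 0.37 on the log2 scale (limma, adjusted p = 0.00094), and A-549 minus ES-2 (4416 ± 184 against 6403 ± 112) was -0.54 (adjusted p = 0.000228). This scale moved the median of all miRNAs in these pairs by 0.41 and -0.28. When miR-21-5p reads were left out of the library size, A-549 was instead higher than ES-2 by 0.50 (limma's adjusted p = 0.000186). That scaling also moved the median of all miRNAs in the pair by 0.50, and 218 of 528 miRNAs were called.

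miR-107 was present at a far lower level. Replicates 1 and 2 of ES-2 had 165.2 and 164.9 normalised CPM of hsa-miR-107, and those of Huh-7 had 178 and 129. MV-3 libraries were at 106.6 and 119, and A-549 libraries at 115 and 109.6. Libraries of ES-2 lay above those of MV-3 and A-549, and the Huh-7 libraries spanned the range of ES-2 and reached down to 129. These values rest on 134 to 631 reads per library. The 2 Huh-7 libraries differed by more than counting error, with exact 95% Poisson intervals of 164 to 192 and 116 to 142 normalised CPM. miR-107 ranked from 124 to 178 among the miRNAs of a library, lowest in both A-549 libraries.

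The joint test of miR-107 over the 4 lines did not pass the threshold of 0.01 (limma's adjusted p = 0.0473), and 0 of 6 pairs were called with normalised CPM. At an unadjusted p below 0.05 there were 2 such pairs, and edgeR's and DESeq2's tests on recovered reads also called 0. Of the 6 differences, the largest was that of A-549 against ES-2, at -0.55 on the log2 scale (SE 0.18, adjusted p = 0.0376 by limma), and MV-3 against ES-2 gave -0.55 as well (adjusted p = 0.054). Without Huh-7 replicate 2, the joint test gave an adjusted p of 0.00945 and thus a call. By library CPM, miR-107 was highest in Huh-7 (255 ± 50.1) and lowest in A-549 (67.5 ± 3.54), with ES-2 (141 ± 2.28) and MV-3 (131 ± 12.3) between them, and 5 of 6 pairs were called, all but MV-3 against ES-2. On that scale, 79.2% of miRNAs were called in the joint test. By pairs, these were 27.1% for MV-3 against ES-2, 59.5% for Huh-7 against ES-2, 47.7% for A-549 against ES-2, 52.8% for Huh-7 against MV-3, 45.6% for A-549 against MV-3 and 67.2% for A-549 against Huh-7. miR-107 differed by -1.89 on the log2 scale between A-549 and Huh-7, a pair in which library CPM moved the median of all miRNAs by -1.28.

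**Figure D2:**
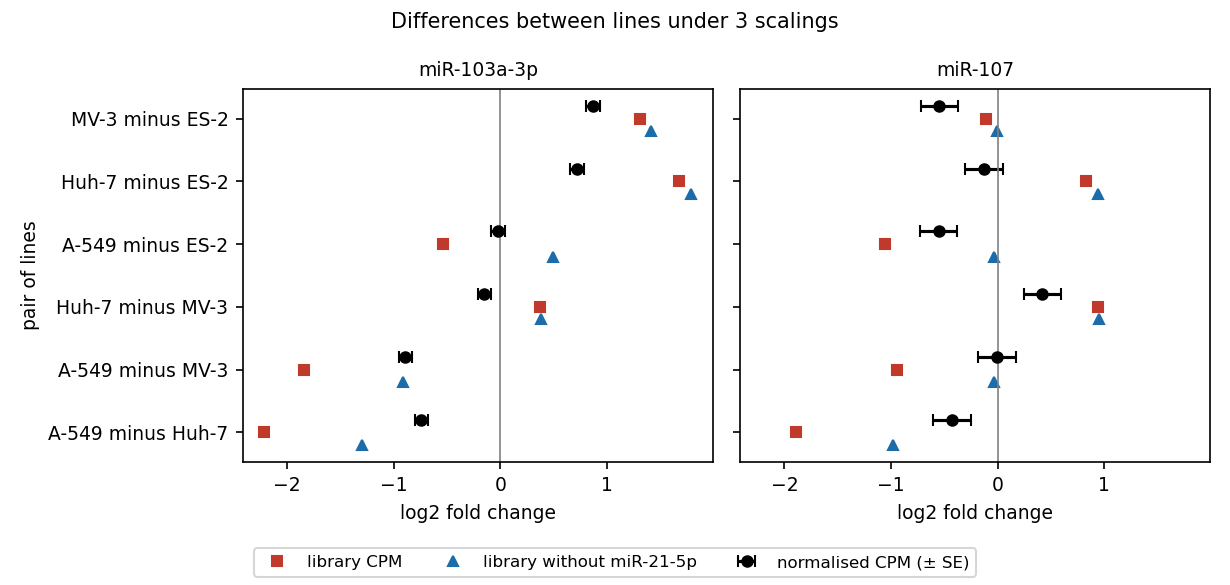
Log2 fold changes of miR-103a-3p (left) and miR-107 (right) for the 6 pairs of lines, with normalised CPM (circles, bars are ± SE), library CPM (squares) and library size without miR-21-5p reads (triangles). Sizes move with the scaling for both, in A-549 minus Huh-7 from -0.74 to -2.21 for miR-103a-3p and from -0.43 to -1.89 for miR-107.

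The relation of miR-107 to miR-103a-3p is a ratio within a library and does not depend on the scaling. Its share of the summed reads of both was 2.21% and 2.11% in the ES-2 libraries, 1.61% and 1.41% in those of A-549, 1.39% and 1.07% in those of Huh-7 and 0.793% and 0.849% in those of MV-3. No 2 lines overlapped, although the ranges of Huh-7 and A-549 came within their counting error, with a Wilson 95% interval of 1.19% to 1.67% for A-549 replicate 2, which includes Huh-7 replicate 1. The mean share was 2.63-fold higher in ES-2 (2.16% ± 0.0712) than in MV-3 (0.821% ± 0.0392). With the F ratio as the statistic, an exact permutation test yielded p = 0.00952, which no arrangement among the 105 partitions of the libraries into 4 pairs can undercut, and an adjusted p of 0.0381 over the 4 single values tested (threshold 0.05). This call was lost without MV-3 replicate 1, Huh-7 replicate 2 or A-549 replicate 1 (adjusted p = 0.0762 each, exact permutation test), MV-3 replicate 2 (0.0952) or A-549 replicate 2 (0.0571). Between 2 lines, an exact permutation test cannot go below p = 0.333. In reads, miR-103a-3p exceeded miR-107 by 44.2-fold and 46.3-fold in ES-2 and by 125-fold and 117-fold in MV-3. As the substitution G22C lies at the penultimate base, how reads shortened at their 3′ end were divided between both names was not stated, and its part in the share was not tested.

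**Figure D3:**
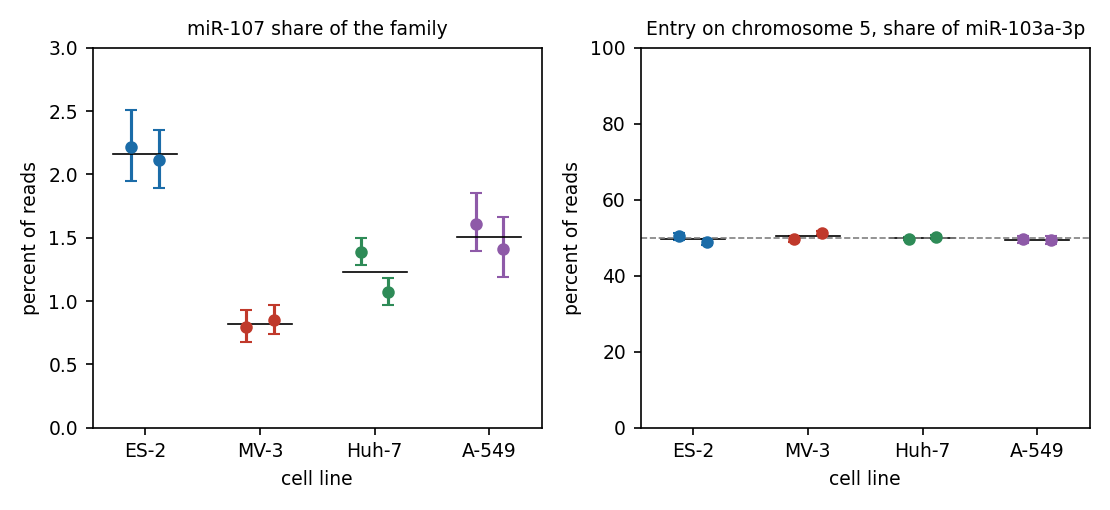
Points are single libraries with Wilson 95% intervals and bars are line means. The left panel shows the miR-107 share of miR-103a-3p and miR-107 reads, from 0.793% to 2.21%, and the right panel the share of miR-103a-3p reads at its chromosome 5 entry, from 48.8% to 51.3% around the dashed line at 50%.

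As miR-107 held only 0.793% to 2.21% of the reads, the summed level of both had to follow miR-103a-3p and is no separate result. It was 13737 ± 419 normalised CPM in MV-3, 12437 ± 546 in Huh-7, 7635 ± 239 in ES-2 and 7465 ± 432 in A-549 (SD, n = 2). MV-3 exceeded A-549 by 0.88 on the log2 scale, and the exact permutation test over the 4 lines gave p = 0.019 (adjusted p = 0.0381). This call was lost without ES-2 replicate 2, Huh-7 replicate 2 or any single library of MV-3 or A-549. With single libraries left out, the difference was 0.82 to 0.94. In library CPM the difference between MV-3 and A-549 was 1.83 on the log2 scale.

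Whether the hairpins in PANK3 and PANK2 contributed unequally was examined by the entries of miR-103a-3p on chromosomes 5 and 20. Of miR-103a-3p reads, the chromosome 5 entry held 50.3% and 48.8% in the ES-2 libraries, 49.6% and 49.3% in those of A-549, 49.8% and 50.1% in those of Huh-7 and 49.7% and 51.3% in those of MV-3. In 6 of 8 libraries the Wilson interval included 50%, and the lines did not separate (exact permutation test, p = 0.695). The mature sequence is the same at both loci, and an even division is not particular to miR-103a-3p. Of 25 miRNAs with 2 entries and at least 1000 reads in all, the first entry held 45% to 55% of reads in 19. Since a read of the mature miRNA matches both loci, the output of PANK3 and of PANK2 cannot be told apart by these entries.

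The 5p arm of the PANK2 hairpin would be more particular to a locus but was barely detected. hsa-miR-103a-2-5p had 5 reads in MV-3 replicate 1, 6 in Huh-7 replicate 2 and 0 in the other 6 libraries. It did not pass the filter on low values and was not tested by limma. Relative to miR-103a-3p reads at the chromosome 20 entry, these were 0.0552% and 0.0344%, and the counts of 0 allow up to 0.0133% in Huh-7 replicate 1 and up to 0.0632% in A-549 replicate 2. With 6 of 8 libraries at 0 and the non-zero values in different lines, the exact permutation test (p = 1) could not show a difference. Nothing is concluded from it. miR-103b had 0 reads at both positions in all 8 libraries, which allows between 0.845 and 2.45 normalised CPM per library. miR-103a-1-5p was not analysed here.

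The seed of miR-103a-3p and miR-107 is related to that of the miR-15/16 family, whose members hold the same bases AGCAGC shifted by 1 position and are known as inhibitors of cell cycle genes. Capitals again mark bases 2 to 8.
miR-16-5p: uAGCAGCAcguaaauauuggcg
miR-15b-5p: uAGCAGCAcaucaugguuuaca
miR-424-5p: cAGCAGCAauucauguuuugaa
miR-503-5p: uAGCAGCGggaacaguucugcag
Of 9 miRNAs in this list, 7 were tested and 4 were called among the 4 lines, beside 68.2% of all miRNAs. miR-16-5p, the most abundant, was highest in Huh-7 (4530 ± 267 normalised CPM) and lowest in A-549 (2642 ± 97.1; limma's adjusted p = 0.000426). miR-15a-5p was highest in Huh-7 (268 ± 33.2) and lowest in MV-3 (112 ± 21.8; adjusted p = 0.0021). Its call was lost without Huh-7 replicate 1 (adjusted p = 0.0258), Huh-7 replicate 2 (0.0131), A-549 replicate 1 (0.0116) or A-549 replicate 2 (0.012), and without the filter on low values (0.0148). By library CPM the lowest line was A-549 (70.1 ± 3.07), with ES-2 (128 ± 14.9) and MV-3 (131 ± 27.4) close together.

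The X-chromosomal neighbours miR-424-5p and miR-503-5p showed the opposite grouping to miR-103a-3p. miR-424-5p reached 688 ± 34.6 normalised CPM in ES-2 and 554 ± 103 in A-549, but 150 ± 25.7 in MV-3 and 121 ± 20.1 in Huh-7 (limma's adjusted p = 6.99e-05). miR-503-5p was at 1352 ± 46.9 and 944 ± 105 in ES-2 and A-549, and at 404 ± 12.7 and 364 ± 32.8 in MV-3 and Huh-7 (adjusted p = 1.88e-05). By library CPM the grouping of miR-503-5p was lost, since Huh-7 (606 ± 36.7) then lay above A-549 (568 ± 73.2). Not called were miR-15b-5p (adjusted p = 0.0121), miR-195-5p (0.2) and miR-497-5p (0.0997). miR-15b-5p was called by edgeR (0.00626), by DESeq2 (0.000799), with a filter of 10 normalised CPM (0.00981), by library CPM (5.58e-05) and without miR-21-5p reads (0.000978). miR-497-5p was called by library CPM (0.00623), where 6 of 7 members passed, beside 79.2% of all miRNAs. miR-6838-5p had 2 reads each in ES-2 replicate 1 and A-549 replicate 1, and miR-646 had 0 in each library. Summed reads of miR-103a-3p and miR-107 made up 51.1% and 51.3% of reads of both families together in ES-2, 56.1% and 61.1% in A-549, 64.1% and 65.3% in Huh-7, and 71.1% and 71.6% in MV-3.

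**Figure D4:**
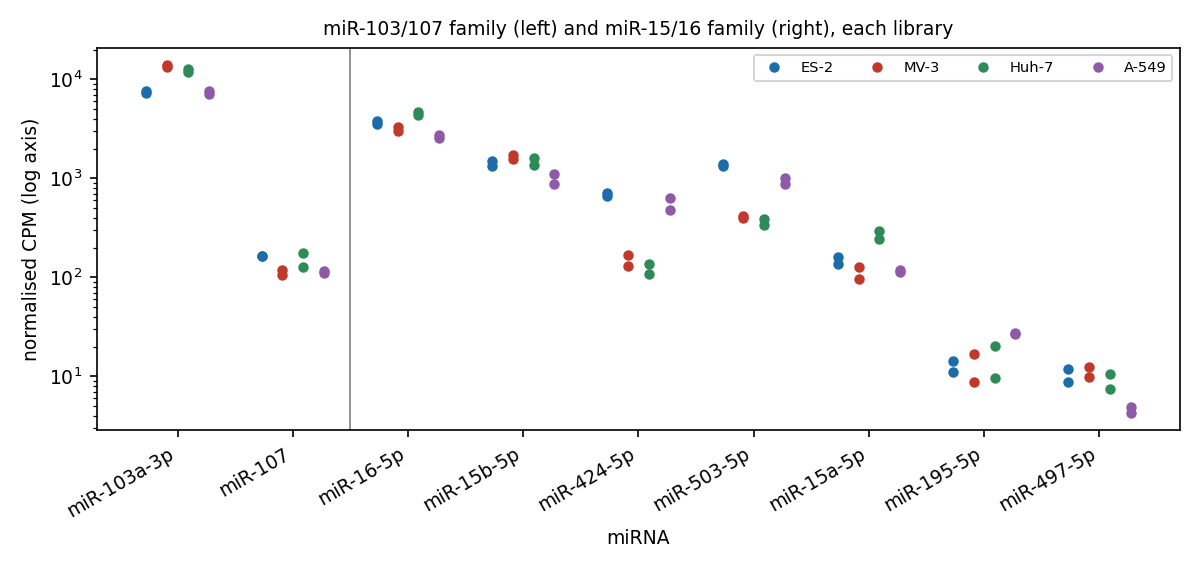
Points are single libraries, colored by line, on a logarithmic axis of normalised CPM, for miR-103a-3p and miR-107 (left of the line) and the 7 tested members of the miR-15/16 family. miR-103a-3p lies above the other miRNAs in every line, and miR-424-5p and miR-503-5p are high in ES-2 and A-549, where miR-103a-3p is low.

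By pairs, list members called with normalised CPM are counted. Beside them stands the share of all miRNAs called in each direction, with normalised CPM and then with library CPM. List members were not counted by pairs with library CPM, so the counts compare with the first shares only. MV-3 against ES-2 had 0 of 7 higher and 2 lower (all miRNAs 11.6% higher and 14.2% lower, then 16.1% and 11%). Huh-7 against ES-2 had 1 higher and 2 lower (27.7% and 21.6%, then 43% and 16.5%), and A-549 against ES-2 had 0 higher and 2 lower (23.7% and 17.6%, then 21.2% and 26.5%). miR-424-5p and miR-503-5p were the members lower in MV-3 and Huh-7 than in ES-2, the pairs in which miR-103a-3p was higher. Huh-7 against MV-3 had 2 higher and 0 lower (26.9% and 20.1%, then 35.4% and 17.4%). A-549 against MV-3 had 2 higher and 1 lower (24.1% and 15.5%, then 15.5% and 30.1%), and A-549 against Huh-7 had 2 of each (28.6% and 23.7%, then 21% and 46.2%). The median log2 difference of the list ranged from -0.60 for A-549 minus Huh-7 to 0.07 for Huh-7 minus ES-2, where the medians of all miRNAs were -0.09 and 0.34.

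Other miRNAs within introns of metabolic genes served as a further comparison, namely both arms of miR-33a (SREBF2), miR-33b (SREBF1) and miR-378a (PPARGC1B). Of these 6 miRNAs, 4 were tested and 1 was called among the 4 lines, beside 68.2% of all miRNAs. miR-378a-3p, whose host encodes a coactivator of mitochondrial genes, was highest in ES-2 (798 ± 1.88 normalised CPM), followed by MV-3 (324 ± 19.6), A-549 (237 ± 7.26) and Huh-7 (215 ± 27.9; limma's adjusted p = 3.49e-05). By library CPM it was again highest in ES-2 (684 ± 11.6), while A-549 (143 ± 6.89) fell below MV-3 (377 ± 16.9) and Huh-7 (359 ± 35.8). ES-2, where miR-378a-3p was highest on both scales, had less miR-103a-3p than MV-3 and Huh-7 on both. A-549 did not follow this. Its miR-103a-3p was near that of ES-2 in normalised CPM (7353 and 7470), but its miR-378a-3p was at 237. In library CPM, A-549 was the lowest line for both miRNAs (4416 and 143). By pairs with normalised CPM, miR-378a-3p was called lower in each of the other lines than in ES-2, in pairs with 25.8% (MV-3), 49.2% (Huh-7) and 41.3% (A-549) of all miRNAs called in either direction. It was also higher in MV-3 than in Huh-7 (47% of miRNAs called). The list held no other call by pairs. With normalised CPM, the joint test did not call miR-33a-5p (limma's adjusted p = 0.021), miR-33b-3p (0.382) or miR-378a-5p (0.0421). Their line means ranged from 0.818 to 25.3 normalised CPM. By library CPM, miR-33a-5p passed the threshold (limma's adjusted p = 0.00659), on a scale where 79.2% of all miRNAs were called. miR-33a-3p and miR-33b-5p did not pass the filter.

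Finally, miRNAs with the most similar pattern over the 8 libraries were determined among the 179 whose mean reached 100 normalised CPM. The highest Pearson's r of log2(normalised CPM + 1) to miR-103a-3p was that of miR-421 (0.966) and miR-3613-5p (0.956), followed by miR-197-3p, miR-26b-5p and miR-193a-5p (0.897, 0.897 and 0.888). In normalised CPM, miR-421 was at 364 in MV-3 and 412 in Huh-7 against 128 in ES-2 and 111 in A-549, and miR-26b-5p at 4244 and 5544 against 2481 and 1615. For miR-107, the highest r was that of miR-140-3p (0.919) and miR-30e-5p (0.90), followed by miR-92a-1-5p, miR-20a-5p and miR-19b-3p (0.843, 0.825 and 0.824). The r between miR-103a-3p and miR-107 was -0.14, and 0.82 with library CPM. By library CPM, miR-421 and miR-140-3p again ranked 1 for their member, but miR-193a-5p ranked 29, and miR-92a-1-5p, miR-20a-5p and miR-19b-3p ranked 57, 33 and 30 of 179. These coefficients describe 8 libraries of 4 lines, which share their line and their scaling, and carry no p value.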

How the data were processed

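Small RNA libraries were made from 50 ng of total RNA of 4 parental cell lines, 2 per line. Per the study's methods, reads were trimmed with Cutadapt 1.14, aligned to GRCh38 with Bowtie2 2.3.2 and counted on miRBase miRNAs with featureCounts 1.5.3. The treatment of multiply aligned reads and of strand was not stated. The authors deposited normalised signal values, scaled by TMM factors of edgeR 3.18.1. All values (100% per library, tolerance 0.001) were whole reads times a constant, from which reads were recovered. Libraries held 1173902 to 2670030 reads, and intervals or floors (3 reads) cover counting error only.

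Entries of a name were summed. log2(normalised CPM + 1) was fitted with limma 3.58.1 (R 4.3.3), with a mean-dependent prior and 1 term per line, over 528 miRNAs passing filterByExpr. Calls were made at a Benjamini-Hochberg adjusted p below 0.01. Single values were compared by exact permutation of F ratios, at a threshold of 0.05 after adjustment over 4 values. For miR-103a-2-5p the planned log2 ratio was undefined at 0 reads, so the linear ratio was used. In a simulation of Huh-7 against ES-2 with 528 miRNAs and a fixed dispersion, limma recovered 89% of 200 that were changed 4-fold. With normalised CPM, the largest difference of a family member was 1.85-fold, so the simulation does not measure power for the family. Alternatives included RLE factors, library size, other filters, edgeR 4.0.16 and DESeq2 1.42.0 on recovered reads, and single libraries left out. Named miRNAs are the members, their antisense entries, the miR-15/16 and metabolic host lists, and the 5 most similar miRNAs per member. Members and lists were chosen with earlier results of these data known, and all other miRNAs named were chosen after their values were seen or are markers.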

Additional observations from a re-analysis of the deposited data

How the results depend on the processing

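For miR-103a-3p, the joint call and the calls of MV-3 and Huh-7 over ES-2 and A-549 kept their direction and their side of the threshold in each alternative run, and 4 to 6 pairs were called. The pairs that were not called changed sign with the scaling. For A-549 minus ES-2, the log2 fold change was 0.0789 with RLE factors, 0.50 with library size without miR-21-5p and 0.0803 with DESeq2, and -0.0842 to 0.0368 when single libraries were left out. For Huh-7 minus MV-3 it was 0.37 with library size only and 0.38 without miR-21-5p. For miR-107, Huh-7 minus ES-2 was 0.83 with library size only and 0.94 without miR-21-5p, and -0.36 to 0.11 with single libraries left out. A-549 minus MV-3 was 0.12 with RLE factors, 0.12 with DESeq2, and -0.0837 to 0.0747 with single libraries left out. The joint test of miR-107 passed the threshold when this was set to an adjusted p below 0.05, with library size only and without miR-21-5p. In these settings the joint test called 431, 418 and 379 of 528 miRNAs, so such a call was common. The log2 difference of ES-2 minus A-549 was 0.55, 1.06 with library size only and 0.0358 without miR-21-5p. Single libraries left out gave 0.52 to 0.59 for it. Without miR-21-5p the large differences were those of Huh-7, at 0.94 minus ES-2, 0.95 minus MV-3 and -0.98 for A-549 minus Huh-7. The number of pairs called for miR-107 was 1 at 0.05, 5 with library size only and 3 without miR-21-5p. The pair at 0.05 was A-549 against ES-2, with 283 of 528 miRNAs called. Without miR-21-5p, 308 miRNAs were called for Huh-7 against ES-2, 265 for Huh-7 against MV-3 and 296 for A-549 against Huh-7. Calls of miR-107 in these pairs are therefore not particular to it. Fits restricted to the libraries of a pair called 73 miRNAs for MV-3 against ES-2 and 145 for A-549 against ES-2, beside 136 and 218, with fewer residual degrees of freedom. The cause of the other changes was not tested, except that the scalings differ by construction. With single libraries left out, the miR-107 share of ES-2 exceeded that of MV-3 by 1.29 to 1.39 percentage points and passed the adjusted threshold of 0.05 in 3 of 8 cases, and the summed level of MV-3 exceeded that of A-549 by 0.82 to 0.94 on the log2 scale and passed it in 2 of 8. Replicate numbers marked no stated batch, and deviations of same-numbered libraries correlated between lines by -0.05 to 0.232. With a replicate block, 361 miRNAs were called in the joint test beside 360, and the block changed no call of a member. miR-103a-2-5p had at most 6 reads per library, near the floor of 3 reads, which limits any comparison of lines.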
